A study of Homo sapiens with 4 samples.

Results

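RBL2, CCND3 and E2F2 are 3 genes of the retinoblastoma (RB) pathway listed in the authors' deposited table as up or down in cells with an shRNA against PCAF. They were chosen by symbol from that table, where each stands on 1 line and 1 probe set, so the members are 3 of the 759 probe sets that the table names and of the 33297 on each array. The table was selected on the comparison described here, so the 3 differences between groups are given as descriptions, with no test. The cells were HCT116, an established human colorectal carcinoma line, growing asynchronously. The control cells (shControl), labelled wild-type, were transfected with a control shRNA, and the knockdown cells (shPCAF) with an shRNA against PCAF, the lysine acetyltransferase now named KAT2B. Each group had 2 arrays of total RNA, and the series title names target genes of p27, an inhibitor of cyclin-dependent kinases. The labels give neither the shRNA sequence, nor the time after transfection, nor whether replicates were separate cultures, so the spread between arrays may be technical. Of 14 markers of intestinal epithelium, 2 carried a name in the table, and both had signal on all arrays: CDH1 (E-cadherin) between 10.23 and 11.56 and CLDN7 (a claudin of tight junctions) between 11.96 and 12.76 on the log2 scale. No line of the table carries KAT2B, so the target of the shRNA was not listed as up or down. Its signal could not be looked up, and the knockdown itself was not analysed here.

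The RB family of pocket proteins holds E2F transcription factors in check early in the cell cycle. D-type cyclins with their kinases phosphorylate the pocket proteins, which releases E2F factors to switch on genes of DNA replication. In resting cells the pocket protein p130, the product of RBL2, joins repressor E2F factors and the MuvB proteins in the DREAM complex, which silences cell cycle genes. E2F sites lie mainly in promoters of genes for S phase entry, and the CHR element, bound by MuvB, in promoters of genes for mitosis.

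Because the pathway acts through these promoter elements, the promoters of the 3 genes themselves were searched for them, and the matches are shown here. RefSeq windows of GRCh38.p14, from 250 bases before to 50 bases after a transcription start, were found for 3 of 3 genes, with 2 windows for RBL2, 3 for CCND3 and 1 for E2F2. Both strands were searched for E2F letters (TTTCCCGC, TTTGGCGC, TTTCGCGC or TTTGCCGC), CHR letters (TTTGAA) and FOXO letters (GTAAACA), and no match of these motifs overlapped another in the windows of the 3 genes. The E2F2 window held an E2F match, TTTGGCGC, from position -42 to position -35, where position -1 is the last base before the start and position 1 the start itself. The 250 bases before the E2F2 start, at chr1:23531234-23531483 on the minus strand, are printed with that match in capitals.
E2F2 promoter: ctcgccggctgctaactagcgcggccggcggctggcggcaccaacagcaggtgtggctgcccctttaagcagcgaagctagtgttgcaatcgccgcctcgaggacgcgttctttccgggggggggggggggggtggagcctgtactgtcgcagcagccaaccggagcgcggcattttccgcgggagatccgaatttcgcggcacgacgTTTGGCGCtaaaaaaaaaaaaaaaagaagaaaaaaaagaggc
The other 2 genes had no E2F match in their windows, and 1 window of each held another motif, shown in capitals with the bases around it. RBL2 had the CHR letters just after the start, from position 25 to position 30 (chr16:53434485-53434510, plus strand), and CCND3 had the FOXO letters across one of its starts, from position -2 to position 5 (chr6:42048674-42048700, minus strand).
RBL2 site: cgcttcgccgTTTGAAtggctgcggg
CCND3 site: cgcggactttGTAAACActtcgccact
E2F2 site: cggcacgacgTTTGGCGCtaaaaaaaaa
Of all 35116 windows of this length, 3.32% held an E2F match, 15.2% a CHR match and 3.42% a FOXO match, and the TTTGGCGC form of E2F2 was in 0.652%. A match is a description of letters and not evidence of binding, and a window without a match says only that these letters are not in it.

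RBL2 encodes p130, a pocket protein that represses E2F target genes in resting cells. Its log2 signal was 8.49 and 8.60 in control cells and 9.59 and 9.84 in knockdown cells. Both shPCAF arrays were higher than both shControl arrays, as for 23.1% of all probe sets, and the gap of 0.987 between the nearest arrays of the 2 groups was 3.96 times the widest spread within a group. The mean went from 8.55 ± 0.08 to 9.71 ± 0.18 (SD, n = 2 each), a difference of 1.17 ± 0.11 (moderated SE) or 2.24-fold. It was the 232nd largest of the 13087 positive differences on the arrays, and the 150th largest of the 493 among probe sets with a single gene name.

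CCND3 encodes cyclin D3, a regulatory subunit of the kinases that phosphorylate pocket proteins. Its log2 signal read 10.55 and 10.64 with the control shRNA and 9.59 and 9.78 with the PCAF shRNA. Both shPCAF arrays were lower than both shControl arrays, as for 36% of all probe sets, and the nearest arrays of the 2 groups lay 0.771 apart, 3.97 times the widest spread within a group. The mean went from 10.60 ± 0.07 to 9.68 ± 0.14 (SD, n = 2 each), a difference of -0.92 ± 0.10 (moderated SE), which left 53.0% of the shControl signal. CCND3 had the 259th most negative of 20210 negative differences, and the 88th of 218 among singly named probe sets.

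E2F2 encodes an activator E2F, which is held by the RB protein and turns on genes of S phase entry when released. The control arrays read 8.46 and 8.39 and the knockdown arrays 7.29 and 7.47 on the log2 scale. Both shPCAF arrays were below both shControl arrays, as for 36% of all probe sets. The gap of 0.924 between the nearest arrays was 5.15 times the widest spread within a group. The mean went from 8.42 ± 0.05 to 7.38 ± 0.13 (SD, n = 2 each), a difference of -1.05 ± 0.09 (moderated SE), which left 48.4% of the shControl signal. It had the 136th most negative difference of all probe sets and the 43rd among singly named ones. Its lowest signal, 7.29, was above the median signal of that array, 7.03.

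**Figure D1:**
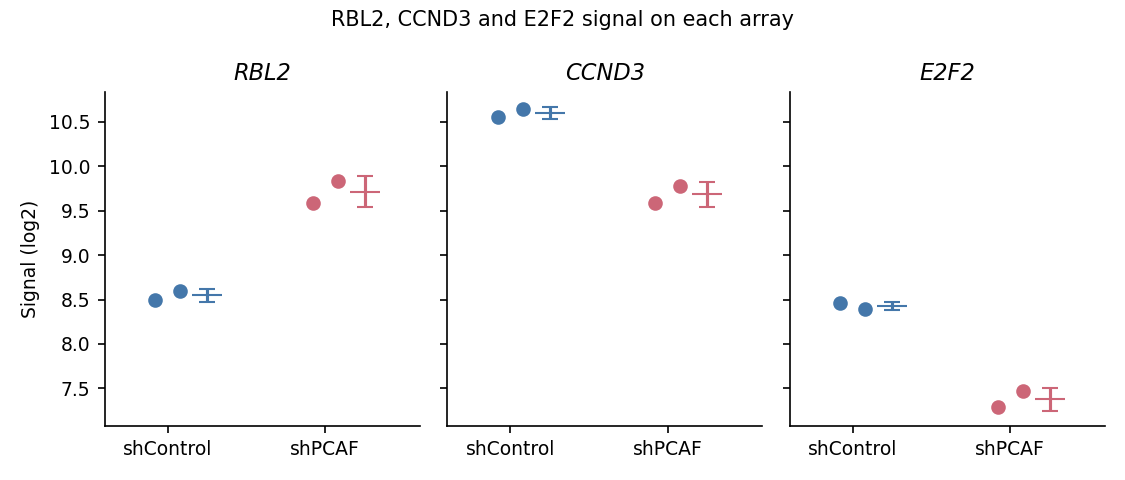
Log2 signal (vertical axis) of the RBL2, CCND3 and E2F2 probe sets on 2 shControl arrays (blue) and 2 shPCAF arrays (red), with each point an array and the bar beside it the mean and SD. RBL2 lay at 9.59 and 9.84 in shPCAF cells against 8.49 and 8.60 in controls, while CCND3 and E2F2 lay below their controls, and heights are not comparable between genes because probe sets differ.

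The authors listed RBL2 as up and the other 2 genes as down, with no absolute difference below 0.70 in their table. A wide separation of RBL2 from CCND3 and E2F2 was therefore fixed by the choice, and its values are a description. Their size did not depend on any constant added to an array. A difference between 2 probe sets on 1 array is free of such a constant. The direction of each gene by itself does depend on it. Relative to the shControl mean of the same quantity, RBL2 minus CCND3 was 2.05 and 2.11 higher in the 2 shPCAF arrays. Its SD was 0.0096 between the shControl arrays and 0.039 between the shPCAF arrays. RBL2 minus E2F2 was 2.18 and 2.25 higher, with a shControl SD of 0.12 and a shPCAF SD of 0.050. Each SD rests on 2 arrays and is a rough measure of spread. CCND3 minus E2F2 moved by 0.12 and 0.14, against a shControl SD of 0.11, so the negative differences of these 2 genes lay apart by about the spread of the control arrays. Over the 4 arrays the profiles of CCND3 and E2F2, each centred on its own mean, lay 0.0863 apart (root mean square distance on the log2 scale), and those of RBL2 and CCND3 1.04 apart.

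The 3 differences lay in the outer part of the distribution over all probe sets, as the choice from the table implies. An absolute difference larger than that of RBL2 was seen in 311 probe sets (0.934% of all), larger than that of E2F2 in 468 (1.41%) and larger than that of CCND3 in 719 (2.16%). The median difference of all probe sets was -0.05. The smallest absolute difference in the authors' deposited table was 0.70, so each of the 3 genes lay well inside the range of the table. The authors' deposited table lists RBL2 at 2.50, CCND3 at 1.97 and E2F2 at 2.25 under the heading fold change. These deposited values are not folds of the log2 signals, which give 2.24, 1.89 and 2.06, and each is 2.15 times the absolute log2 difference.

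**Figure D2:**
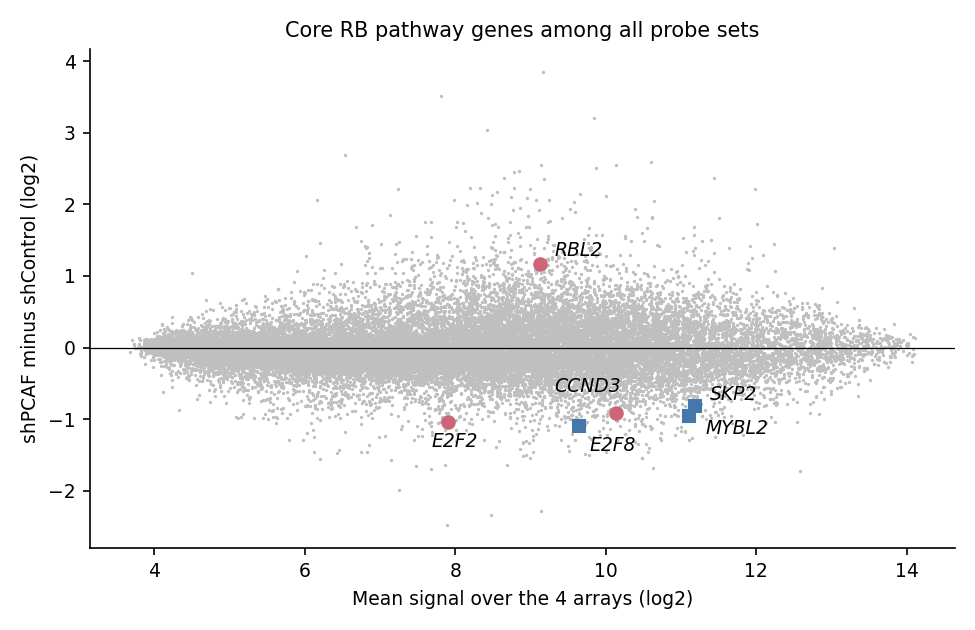
Difference between shPCAF and shControl means (vertical axis, log2) against the mean signal over the 4 arrays (horizontal axis, log2) for all 33297 probe sets (grey), with RBL2, CCND3 and E2F2 as red circles and the other named genes of the core RB pathway list as blue squares. RBL2 at 1.17 is the only marked gene above 0, and the other 5 lie between -1.10 and -0.82.

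The genes whose pattern over the 4 arrays was most like each member were found among the 711 probe sets with a single name, by the root mean square distance between centred log2 profiles. This likeness follows the group difference for the most part, because 2 groups of 2 arrays leave little else to vary. For E2F2 the nearest were SGO2 (listed as SGOL2, a shugoshin that protects centromeric cohesin) at 0.0198, ERCC6L, a DNA translocase of mitotic chromosomes, at 0.0279 and E2F8, an atypical repressor E2F, at 0.0284. Their differences were -1.06, -1.09 and -1.10, close to the -1.05 of E2F2. For CCND3 they were PRORP (listed as KIAA0391, the nuclease of mitochondrial RNase P) at 0.0217, CDCA8, which encodes the chromosomal passenger protein borealin, at 0.0229 and ARHGEF39 (listed as C9orf100) at 0.0235. For RBL2 they were PHYKPL (listed as AGXT2L2), an enzyme of hydroxylysine breakdown, at 0.0231, LOC727963 at 0.0286 and LEMD1 at 0.0337. CCND3 itself was not among the nearest of E2F2, as 39 other profiles were nearer, and E2F2 stood behind 58 others for CCND3.

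**Figure D3:**
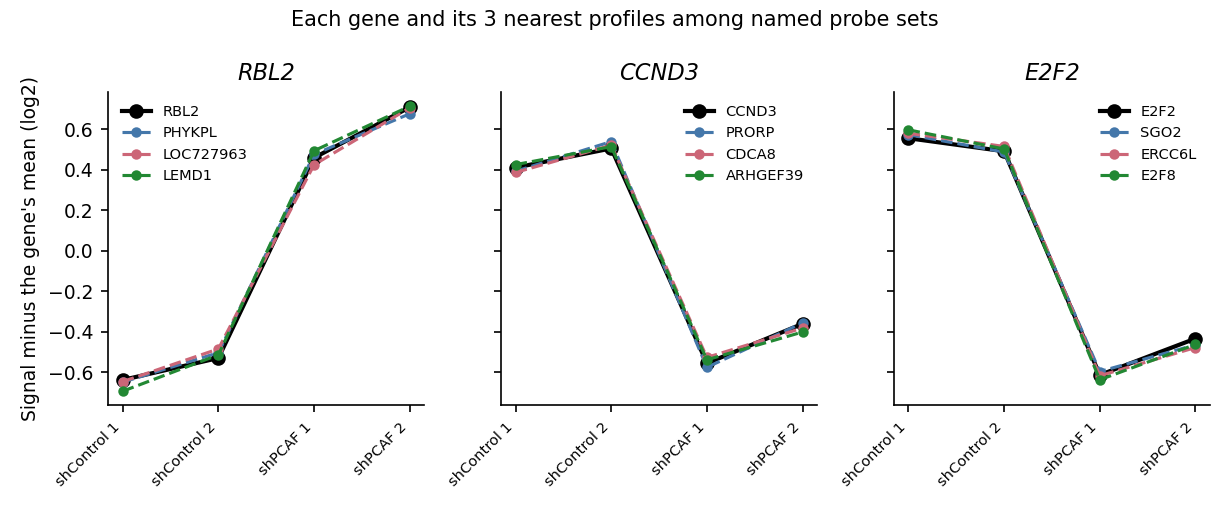
Signal minus the gene's own mean (vertical axis, log2) on the 4 arrays (horizontal axis) for RBL2, CCND3 and E2F2 (black) and the 3 singly named probe sets nearest to each (coloured, dashed). The E2F2 panel holds E2F8 at a distance of 0.0284, and the 4 profiles in each panel nearly coincide.

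The other genes of the pathway were taken from a list of 42. It held pocket proteins, E2F and DP factors, cyclins, kinases, kinase inhibitors and MuvB subunits, and also MYBL2, SKP2, CKS1B, CDC25A and AMBRA1. Of the 42, 6 had a name in the table: the 3 members, E2F8, MYBL2 and SKP2. The remaining 36 carried no name there: they were not listed as up or down, and their signals on the arrays could not be looked up. In the limma fit, with Benjamini-Hochberg adjustment over all probe sets, 12.9% of the 33297 passed at an adjusted p below 0.05 (7.05% higher, 5.85% lower). Of the 711 singly named probe sets, all passed, 69.3% higher and 30.7% lower, because the table was selected on the same arrays, so passing is not independent evidence for any gene below. The 3 listed genes other than the members all fell, with a median of -0.95. The median was 0.81 for singly named probe sets and -0.05 for all. No probe set in the table had an absolute difference below 0.70, so a named gene that fell had to lie far from both medians.

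E2F8, which represses E2F target genes in S phase, had signals of 10.24 and 10.15 in shControl arrays and 9.01 and 9.18 in shPCAF arrays, a fall of 1.10 on the log2 scale (limma, adjusted p = 0.0103). MYBL2, the B-Myb factor that joins MuvB to activate mitotic genes, went from 11.57 and 11.60 to 10.62 and 10.64, a 1.93-fold fall (limma, adjusted p = 0.00798). SKP2, which directs a ubiquitin ligase to p27, went from 11.70 and 11.49 to 10.66 and 10.89, a 1.76-fold fall (limma, adjusted p = 0.0226). In these 3 genes, as in CCND3 and E2F2, both shPCAF arrays lay below both shControl arrays, as they did for 36% of all probe sets. Without shPCAF replicate 1 the fall of SKP2 was 0.70 on the log2 scale and no longer passed (limma, adjusted p = 0.0574). With only 1 of the shControl arrays in the fit, 0 probe sets passed at the adjusted threshold (6848 and 6849 had an unadjusted p below 0.05 by limma), so every call here rests on having both.

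Named E2F target genes of DNA replication were lower in shPCAF cells, like E2F2 and unlike RBL2. Of 50 genes in that list, 9 had a single-name probe set. Of these, 9 of 9 fell, with differences from -1.22 to -0.71 and a median of -0.84. Among all singly named probe sets, 30.7% were lower. The list was chosen with earlier results of these data known, and only genes that the authors listed as up or down carry a name. The count is therefore a description and no test of the list. The other 41 had no single-name probe set, so their signals were not looked up. GINS2, a subunit of the replicative helicase, fell 2.32-fold, from 12.44 and 12.41 to 11.14 and 11.27 (limma, adjusted p = 0.00756). ORC1, of the origin recognition complex, fell 2.13-fold, and POLE2, of the leading-strand DNA polymerase, 2.12-fold. TIPIN, a replication fork protein, fell 1.79-fold. An E2F match was found in the promoters of 4 of the 8 of these genes with a RefSeq window, among them GINS2, POLE2 and TIPIN. The share among all 27305 genes with a window was 3.99%, but the list was drawn up from known E2F targets, so the higher share follows from that choice and says nothing about the fall.

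The late cell cycle genes named in the table, of the group that DREAM represses and that B-Myb and FOXM1 activate, were lower too. Of 56 in the list, 15 had a single-name probe set. Of these, 15 of 15 fell, with differences from -1.51 to -0.74 and a median of -0.97. Among all singly named probe sets, 30.7% were lower. This count too is a description, because the list was chosen with earlier results known and names come from the authors' selection. The other 41 had no single-name probe set, so their signals were not looked up. CDCA3, a cell division gene, had the most negative difference of the list, from 9.66 and 9.74 to 8.09 and 8.29 (limma, adjusted p = 0.00756). SPAG5, a spindle protein, fell 2.48-fold, the kinesin KIF20A 2.39-fold and the transcription factor FOXM1 2.33-fold. The CHR letters were found in the promoters of 9 of the 12 genes with a window, SPAG5, CDCA3 and CDCA8 among them, and in those of 18.2% of all genes. This list was likewise drawn up from targets of complexes that bind the CHR element, so its share is a description of the list. The arrays measured bulk RNA of asynchronous cultures, in which fewer cells in a cell cycle phase and less RNA per cell cannot be told apart.

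RBL2 also belongs to a list of FOXO target and growth arrest genes, as FOXO factors are known to activate it. Of the 33 others on that list, 4 had a single-name probe set and 4 of 4 rose, with differences from 0.72 to 1.76 and a median of 1.42. As 69.3% of singly named probe sets were higher, a count of 4 of 4 is near what the table gives and shows nothing particular to these genes, and the 29 others had no single-name probe set. SESN2, a stress-induced inhibitor of mTORC1, rose 3.39-fold, from 8.30 and 8.46 to 10.12 and 10.16 (limma, adjusted p = 0.00715). GADD45A, a growth arrest and DNA damage gene, rose 2.85-fold, and FBXO32, a ubiquitin ligase subunit, rose 2.51-fold. The difference of RBL2, 1.17, lay between that of FBXO32, 1.33, and the smallest of the list. The FOXO letters were found in the promoters of 0 of the 3 named genes with a window, RBL2 among them. They were in those of 4.19% of all genes. This says only that these letters are not in those windows.

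**Figure D4:**
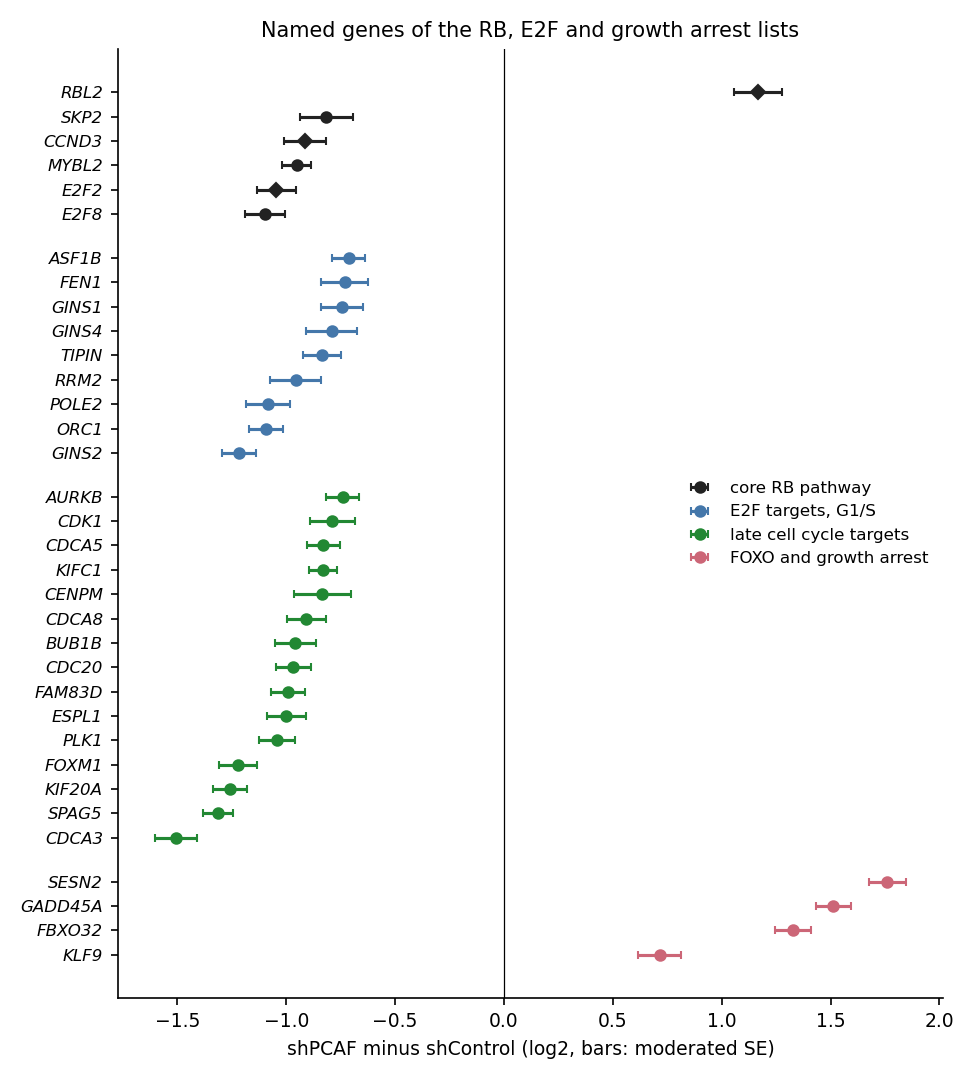
Difference between shPCAF and shControl (horizontal axis, log2, bars the moderated SE) for the singly named members of the core RB pathway list (black, RBL2, CCND3 and E2F2 as diamonds), the E2F target list (blue), the late cell cycle list (green) and the FOXO and growth arrest list (red, without RBL2). RBL2 at 1.17 and the 4 growth arrest genes lie right of 0, and all other genes plotted lie left of it, down to -1.51.

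Some markers of other cell types also changed. Of 22 markers of blood, vessel and connective tissue cells, 3 had a single-name probe set: CD22 was 2.91-fold and ACTA2 1.82-fold higher, and TAGLN 1.66-fold lower (limma, adjusted p = 0.00953, 0.0163 and 0.0131). Their summed signal (log2 of the sum) was 9.04 in both shControl arrays, against 9.71 and 9.88 with the PCAF shRNA. These 3 carry a name only because the authors listed them as up or down on these arrays, CD22 and ACTA2 as up. The sum therefore describes these 3 and not the 22. The other 19 were not listed as up or down, so their signals could not be looked up. The part of these markers in the differences of RBL2, CCND3 and E2F2 was not tested. Of the epithelial markers, CDH1 was 2.14-fold and CLDN7 1.69-fold higher (limma, adjusted p = 0.0154 and 0.0111).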

How the data were processed

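RNA of HCT116 cells was hybridised to 2 shControl and 2 shPCAF single-colour Affymetrix arrays, grouped by sample title. The values deposited by the authors are log2 signals, 1 per probe set. The submitters' processing notes name Affymetrix Expression Console and limma, while the summarization, normalization and build are not stated in the sources used here. In the authors' deposited table, the column headed fold change was treated as a score, since it is no fold of the signals. The p-values deposited there were not used.

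Gene names come from that table. Of its 852 lines, 688 symbols matched RefSeq (GRCh38.p14), 122 were updated through a synonym of 1 gene, and 42 kept the file's symbol. Of 759 probe sets, 711 had 1 symbol, and the others were not used to name genes. Differences were fitted over all 33297 probe sets without a filter with limma 3.58.1 in R 4.3.3 (lmFit, eBayes, no covariate), and p-values adjusted by Benjamini-Hochberg, threshold 0.05. The fit was tested on simulated data. The 3 genes and all lists were chosen with earlier results of these data known. The text names every singly named gene of the core list, up to 4 of smallest p of the other lists, and the 3 nearest profiles of each member; all markers of other cell types are named. The alternatives tried were median centring, quantile normalization, leaving out the dimmest 25% of probe sets, a replicate block and leaving out each array.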

Additional observations from a re-analysis of the deposited data

How the results depend on the processing

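The differences of RBL2, CCND3 and E2F2 kept their direction and moved by less than the larger group SD under each alternative tried. For most alternatives this was fixed in advance. Leaving out an array of a pair cannot move a group mean by more than that group's SD, nor reverse groups that do not overlap. The block and the brightness filter leave a difference unchanged. Only the scaling could have given another outcome, and RBL2, CCND3 and E2F2 stood at 1.23, -0.85 and -0.98 after median centring. After quantile normalization they stood at 1.13, -0.93 and -1.05. Over all alternatives the RBL2 difference ranged from 1.04 to 1.29, that of CCND3 from -1.01 to -0.82 and that of E2F2 from -1.14 to -0.96. The 27 other named genes kept their direction under every alternative. All 27 lost their call without either shControl array, and SKP2 alone did so without shPCAF replicate 1. Leaving out single arrays gave 0 to 2363 called probe sets against 4294, 0 to 1227 higher and 0 to 1142 lower, and both shControl arrays gave the 0, although 6848 and 6849 probe sets then had an unadjusted p below 0.05 by limma (lowest adjusted p 0.0767 and 0.0839). List counts then ranged from 0 to 3 for the core list without the members, 0 to 8 for E2F targets (9 with all arrays), 0 to 15 for late cell cycle genes, 0 to 4 for growth arrest genes, 0 to 2 for epithelial markers, and 0 to 2 higher and 0 to 1 lower for other cell types. Why calls were lost on leaving out an array was not tested. Calls were 54.6% higher as deposited and 68.0% higher after median centring. With the replicate number as a block, 4584 probe sets passed and no named gene changed its call. Deviations of same-numbered arrays correlated at 0.254 over probe sets, and the labels do not say what a number shares. Signal over background was not measured.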
